A study of Mus musculus with 4 samples.

Results

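The genes described here encode 9 receptors through which motor neurons (MNs) receive survival factors, namely *Ret*, *Gfra1*, *Gfra2*, *Ntrk2*, *Ntrk3*, *Ngfr*, *Met*, *Lifr* and *Cntfr*. They were picked by symbol from the 23420 gene symbols of the count files, all 9 were found, and all 9 had enough counts to be tested. Cervical MNs derived from wild type (WT) E14 mouse embryonic stem cells were compared by RNA-seq with cervical MNs derived from *Patz1* -/- (*Patz1* KO) cells of the same E14 line, with 2 libraries of each genotype. The titles of the libraries name ESCs, whereas their source and cell type name cervical MNs, and they were taken as MNs. PATZ1 is a zinc finger protein that binds G-rich DNA, and the KO cells had been made with Cas9 and a guide against *Patz1*. Several KO lines existed, and the labels do not say which of them gave the libraries. Both genotypes had been cultured with LIF and inhibitors of MEK and GSK3 and then differentiated as embryoid bodies with retinoic acid and smoothened agonist, so a culture holds all cell types of the embryoid bodies and not sorted MNs.

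During development MNs compete for factors that are secreted by their muscle targets, by glia and by other neurons, and MNs that receive too little of them die. Each factor acts through its own receptor. GDNF and neurturin bind the membrane-anchored co-receptors GFRA1 and GFRA2, which present them to the tyrosine kinase RET. The neurotrophins BDNF and NT-3 act through the kinases TRKB (*Ntrk2*) and TRKC (*Ntrk3*), and all neurotrophins also bind the p75 receptor (*Ngfr*). HGF acts through the kinase MET. LIF, CNTF and their relatives act through LIFR together with gp130 (*Il6st*), and CNTF needs CNTFR as a further, ligand-binding chain.

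Of the 9 receptor genes, 6 rose in *Patz1* KO MNs and 0 fell. The genes that rose were *Ntrk3* (3.58-fold), *Ntrk2* (2.81-fold), *Cntfr* (1.80-fold), *Met* (1.74-fold), *Ret* (1.47-fold) and *Gfra1* (1.41-fold). *Gfra2*, *Ngfr* and *Lifr* did not pass the test. A call means an adjusted p below 0.05 in edgeR's quasi-likelihood test, with p adjusted by Benjamini-Hochberg over all 14269 genes tested, and fold changes above 1 mean a higher level in *Patz1* KO. By this rule 47.9% of all genes tested were called, 24.1% higher and 23.8% lower. The median log2 fold change was 0.60 over the 9 receptors and -0.0014 over all genes tested. In 7 of the 9, both *Patz1* KO libraries lay above both WT libraries, and groups that did not overlap in either direction made up 74.2% of all genes tested. Replicates stand for separate differentiations according to the study's methods. The direction of the 6 genes that rose held when library size alone or DESeq2's size factors set the scale, and it reversed for *Ret* and *Gfra1*, then not called, when the libraries were scaled to MN markers instead, as given further on.

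**Figure D1:**
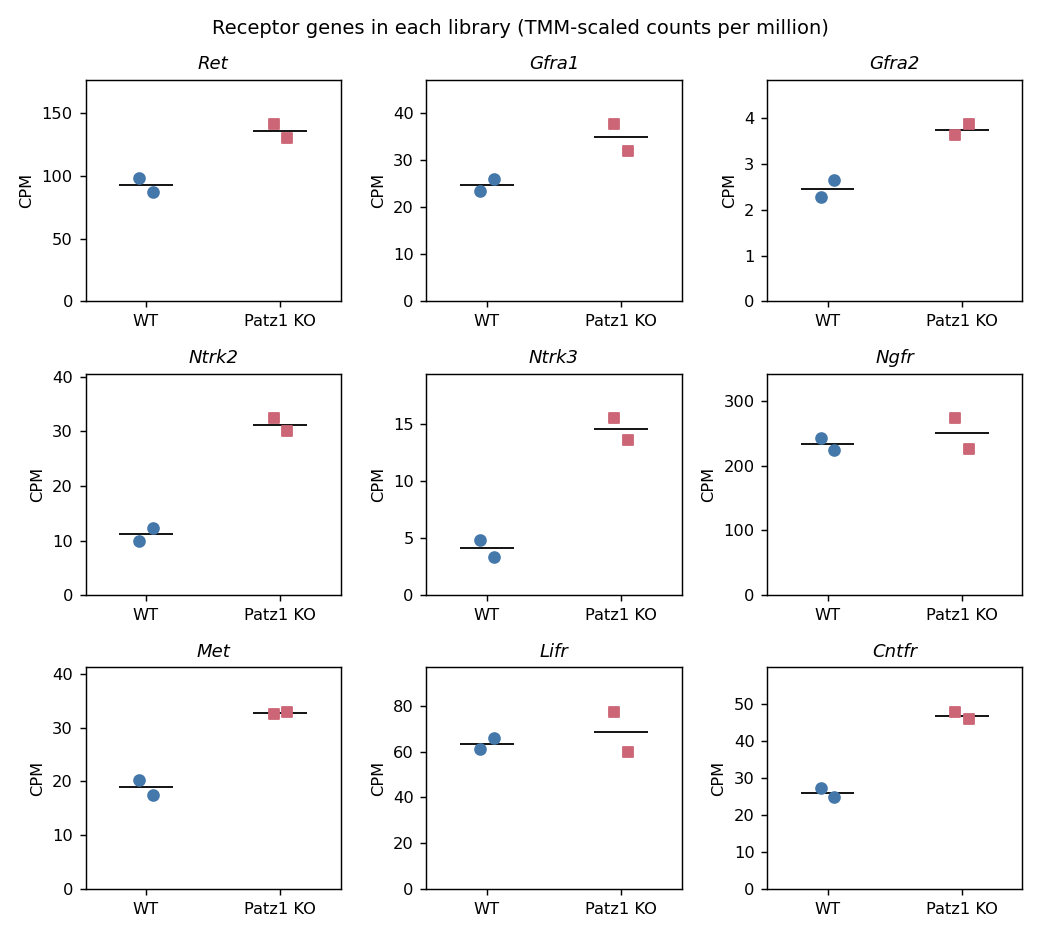
Level of each receptor gene in CPM, counts scaled to library size (vertical axes starting at 0), in the 2 WT libraries (circles) and the 2 *Patz1* KO libraries (squares), with lines at the group means. The groups are apart for 7 genes and overlap for *Ngfr* and *Lifr*.

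The WT libraries held 14769104 and 15728158 counts, while those of *Patz1* KO held 23881522 and 17402342. *Patz1* had 91.4 and 94.2 CPM in WT and 47.6 and 42.5 CPM in *Patz1* KO (log2 fold change -1.04, adjusted p = 1.09e-07, edgeR's quasi-likelihood test), so its transcripts were reduced and still counted in the KO. The paper reports that PATZ1 protein was lost in its *Patz1* KO embryonic stem cell lines by western blot, and RNA counts do not measure protein. CPM values are counts scaled to library sizes normalized with TMM. All 9 MN markers, among them *Slc18a3*, *Lhx3* and *Isl1*, were detected in all 4 libraries. Of these 9 markers 8 were higher in *Patz1* KO, all but *Isl1* (log2 fold change -0.19, not called), with a median log2 fold change of 0.75, and their summed level was 634 to 680 CPM in WT and 999.9 to 1100 CPM in *Patz1* KO. All 9 mesenchyme markers were lower, with a summed level of 205 to 226 CPM in WT and 36.4 to 43.3 CPM in *Patz1* KO. Of 7 tested markers of primitive and visceral endoderm 6 were lower, with sums of 41.7 to 50.3 CPM in WT and 5.69 to 6.61 CPM in *Patz1* KO. In bulk RNA, fewer cells of a type and less RNA per cell cannot be told apart.

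**Figure D2:**
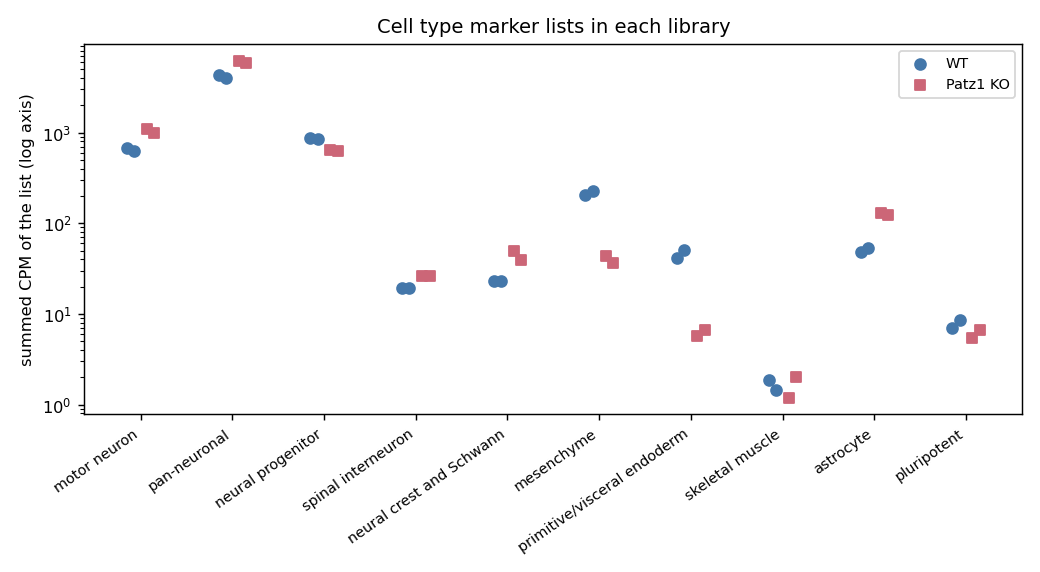
Summed CPM of each list of cell type markers (logarithmic vertical axis) in the WT libraries (circles) and the *Patz1* KO libraries (squares). The MN, pan-neuronal, astrocyte, spinal interneuron and neural crest sums are higher in both *Patz1* KO libraries, and the mesenchyme, endoderm and neural progenitor sums are lower. Of the 8 neural progenitor markers, 3 were called higher, 3 lower and 2 not called. The largest of them, *Nes*, was among the lower ones, with means of 492 CPM in WT and 298 CPM in *Patz1* KO.

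The promoters of 6 of the 9 genes were found among RefSeq promoters of GRCm38.p6, each with 250 bases before and 50 bases after a start, while *Ret*, *Gfra2* and *Ntrk3* had no entry. They were searched on both strands for the G-rich motif GGGGNGGGG, because PATZ1 binds G-rich DNA. A gene was counted if any of its promoter windows held the motif. By this rule 4 of the 6 held it (*Ngfr*, *Met*, *Lifr* and *Cntfr*), against 24.6% of 27025 genes with an entry. The 6 genes had 12 windows and the 27025 genes had 32851, so the 6 had more windows per gene in which to match. *Gfra1* and *Ntrk2* did not hold it. The related motif GGGAGGG, which can overlap the first, was held by 1 of the 6 (*Cntfr*) and by 23.8% of all genes. The match nearest upstream of a start is shown for each of the 4 genes in 30 bases along the direction of the gene, with the match, or its reverse complement, in capitals.
*Cntfr*, chr4:41695587-41695616, minus strand: aaggcgagagGGGGAGGGGagcaagggcgc
*Lifr*, chr15:7129483-7129512, plus strand: gggggcgcgcGGGGCGGGGcctgggcgggg
*Met*, chr6:17463727-17463756, plus strand: cgccaaccccCCCCCCCCCaaccctccaag
*Ngfr*, chr11:95587764-95587793, minus strand: ggggttggggGGGGGGGGGagttgggcggg
Of these 4 genes, *Cntfr* and *Met* rose in *Patz1* KO and *Lifr* and *Ngfr* were not called. *Ntrk2*, with no match in its window, rose more than any of the 4. A match describes letters in these windows and not binding.

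To set the receptors beside each other, CPM were divided by the length of all annotated exons of a gene. On this scale of CPM per kb, *Ngfr* had the highest level in WT (67.8 ± 3.93, SD, n = 2), followed by *Ret* (13.7 ± 1.17), *Cntfr* (9.35 ± 0.629), *Lifr* (5.90 ± 0.328), *Gfra1* (4.53 ± 0.336) and *Met* (2.46 ± 0.257). The lowest levels were those of *Gfra2* (0.695 ± 0.0717), *Ntrk2* (0.577 ± 0.0828) and *Ntrk3* (0.136 ± 0.0337). No neighbours in this order overlapped between the WT libraries. In *Patz1* KO the order was the same at the top, with *Ngfr* at 72.6 ± 9.82, *Ret* at 20.03 ± 1.19 and *Cntfr* at 16.8 ± 0.534 CPM per kb. *Lifr* (7.19 and 5.55) and *Gfra1* (6.88 and 5.85) overlapped there and could not be ordered. *Ntrk2* (1.62 ± 0.0900) then lay above *Gfra2* (1.06 ± 0.0490) in *Patz1* KO and below it in WT. The place of *Ntrk2* depends on the length used, since its annotated exons add up to 19.29 kb and its longest coding transcript has 8.744 kb. With the latter kind of length for every gene, *Ntrk2* was above *Gfra2* in WT too (1.27 against 0.709 CPM per kb). *Gfra1* and *Lifr* again overlapped in *Patz1* KO. There *Ret* (25.88 and 23.79) and *Cntfr* (23.99 and 22.94) overlapped as well, so their order in *Patz1* KO also depends on the length used.

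Among the receptors of the GDNF family, *Ret* and *Gfra1* rose by small amounts. *Ret* encodes the kinase that signals for this family and is found on chromosome 6 (GRCm38, or mm10) from 118151745 to 118197718 on the minus strand. It had 98.1 and 86.9 CPM in the WT libraries and 141 and 130 CPM in the *Patz1* KO libraries. Both KO libraries were above both WT libraries, and the log2 fold change was 0.55 (SE, the standard error, 0.092, adjusted p = 8.76e-05, edgeR's quasi-likelihood test). Without each library in turn it stayed between 0.47 and 0.64. *Gfra1*, the co-receptor that prefers GDNF, lies on chromosome 19 from 58235604 to 58455909 and shares exon sequence with *Gm16277*, an antisense gene. It had 23.5 and 26.1 CPM in WT and 37.7 and 32.1 CPM in *Patz1* KO. Again the groups were apart, with a log2 fold change of 0.50 (SE 0.12, adjusted p = 0.00176, same test). *Gfra2*, the co-receptor that prefers neurturin, lies on chromosome 14 from 70890120 to 70979838 and was the thinnest of the 9 by counts. Its counts were 34 and 42 in the WT libraries against 88 and 65 in the KO libraries, or 2.28 and 2.64 against 3.63 and 3.87 CPM. Its log2 fold change of 0.60 was close to that of *Ret*, but the standard error was 0.26, the 95% interval went from 0.050 to 1.15, and it missed the threshold (adjusted p = 0.0671, edgeR's quasi-likelihood test). It passed only without the filter on low counts (adjusted p = 0.0462, same test), and over all alternatives set beforehand its adjusted p went up to 0.321.

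The TRK kinases showed the largest changes of the 9 genes. *Ntrk2*, on chromosome 13 from 58806569 to 59133970, encodes TRKB, the receptor of BDNF and NT-4. It had 9.997 and 12.3 CPM in WT and 32.5 and 30.03 CPM in *Patz1* KO, and the gap between the genotypes was far wider than that between replicates. The log2 fold change was 1.49 (SE 0.13, adjusted p = 7.11e-08, edgeR's quasi-likelihood test), larger in size than that of 93.3% of the genes tested. *Ntrk3*, on chromosome 7 from 78175959 to 78738012, encodes TRKC, the receptor of NT-3. The WT libraries had 72 and 54 counts and the KO libraries 378 and 229, or 4.83 and 3.39 against 15.6 and 13.6 CPM. Its log2 fold change of 1.84 (SE 0.19, adjusted p = 4.79e-07, same test) exceeded in size that of 95.5% of the genes tested, and it stayed between 1.61 and 2.11 without each library in turn. Both kinase genes also make truncated forms that lack the kinase, and counts per gene do not tell these forms apart. Astrocytes and interneurons can also express TRK receptors. Of 5 astrocyte markers, 2 passed the filter and both were higher (*Slc1a3* and *Aldh1l1*). Sums over the list were 48.7 and 53.6 CPM in WT and 128 and 124 CPM in *Patz1* KO. *Slc1a3* alone made up most of these sums, with 46.2 and 51.6 CPM in WT and 116 and 117 CPM in *Patz1* KO. *Gfap* had at most 1 count in any library, and *Aqp4* and *S100b*, also below the filter, overlapped between the genotypes. Of 6 tested markers of spinal interneurons 4 were higher and 1 was lower, with sums of 19.2 to 19.5 CPM in WT and 26.1 CPM in both *Patz1* KO libraries. The part of these cells in the rise of *Ntrk2* and *Ntrk3* was not tested. The genes with the pattern nearest to that of *Ntrk3* over the 4 libraries, by the distance between log2 CPM values centred on WT, were *Apobec1* (distance 0.118), *Kif17* (0.124) and *Fxyd7* (0.166).

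*Ngfr*, by contrast, differed less between the genotypes than between the *Patz1* KO libraries. It lies on chromosome 11 from 95568818 to 95587735 and encodes p75, which can serve survival with the TRK kinases and death without them. It had 243 and 224 CPM in WT and 274 and 226 CPM in *Patz1* KO, so that the groups overlapped. The log2 fold change was 0.10 with a 95% interval from -0.11 to 0.31 (adjusted p = 0.432, edgeR's quasi-likelihood test). Either *Patz1* KO library decided this value, since without replicate 2 of the KO it was 0.24 (adjusted p = 0.00538, same test) and without replicate 1 it was -0.042. Neural crest and Schwann cells express p75 as well. Of 7 tested markers of these cells 3 were higher, among them *Sox10* and *Foxd3*, and 1 was lower (*Tfap2b*), with sums of 23.0 and 23.3 CPM in WT and 50.01 and 39.5 CPM in *Patz1* KO, and their part in the level of *Ngfr* was not tested.

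*Met*, the HGF receptor, lies on chromosome 6 from 17463800 to 17573980. It had 20.3 and 17.5 CPM in WT and 32.6 and 33.0 CPM in *Patz1* KO, where the replicates were nearly equal. The log2 fold change was 0.80 (SE 0.12, adjusted p = 2.23e-05, edgeR's quasi-likelihood test). MET also acts in migrating muscle precursors, whose markers were scarce here. The 5 skeletal muscle markers summed to 1.45 to 1.88 CPM in WT and 1.196 to 2.03 CPM in *Patz1* KO, with *Myf5* and *Myod1* at no more than 2 counts in any library.

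Of the chains of the CNTF and LIF receptor, *Cntfr* rose and *Lifr* was not called. *Cntfr*, the chain that binds CNTF, lies on chromosome 4 from 41657498 to 41697089 and had 27.2 and 24.8 CPM in WT. Both KO libraries were well above this, with 47.9 and 45.8 CPM, and the log2 fold change was 0.85 (SE 0.10, adjusted p = 2.84e-06, edgeR's quasi-likelihood test). *Lifr*, the signalling chain, lies on chromosome 15 from 7090614 to 7197489 and had 61.1 and 66.1 CPM in WT. The *Patz1* KO libraries lay on both sides of these values, with 77.5 and 59.8 CPM. The log2 fold change of *Lifr* was 0.12 with a 95% interval from -0.12 to 0.35 (adjusted p = 0.420, same test). As for *Ngfr*, either KO library decided it, with 0.29 (adjusted p = 0.00460, same test) without *Patz1* KO replicate 2 and -0.085 without *Patz1* KO replicate 1. *Il6st*, the gp130 chain with which LIFR signals, had 99.8 ± 4.76 CPM in WT and 94.9 ± 9.84 CPM in *Patz1* KO (SD, n = 2 each) and was not called. Its log2 fold change of -0.07 turned to 0.036 without *Patz1* KO replicate 2.

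**Figure D3:**
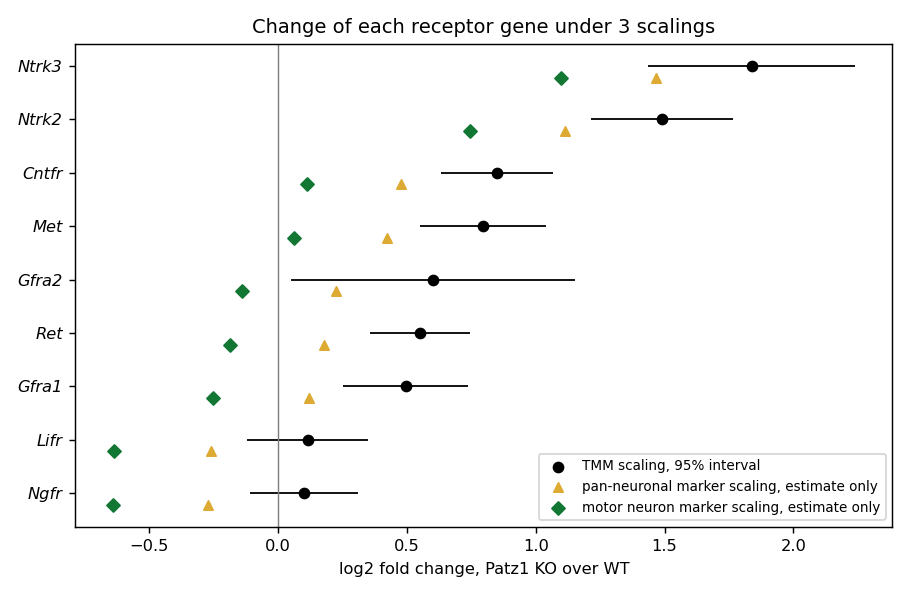
Log2 fold change (horizontal axis, *Patz1* KO over WT) of each receptor gene with TMM scaling (black, with 95% intervals) and, as estimates only, with scaling to the pan-neuronal markers (triangles) or the MN markers (diamonds). *Ntrk3* and *Ntrk2* are above 0 under all 3 scalings, while *Ret*, *Gfra1* and *Gfra2* are below 0 when MN markers set the scale.

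Since MN markers were higher in *Patz1* KO as well, the receptors were also compared per MN marker, an alternative chosen after this rise had been seen. Scaling to the geometric mean of the 9 MN markers moved the median log2 fold change of all genes tested to -0.74, with 553 genes (3.88%) called higher and 10713 (75.1%) lower, against 3445 and 3392 with TMM. *Ntrk2* (log2 fold change 0.74, adjusted p = 2.99e-05, edgeR's quasi-likelihood test) and *Ntrk3* (1.10, adjusted p = 7.42e-06, same test) remained higher on this scale. *Cntfr* (0.11) and *Met* (0.060) were not called, nor were *Ret* (-0.19), *Gfra1* (-0.25) and *Gfra2* (-0.14). *Ngfr* fell by 0.64 (adjusted p = 3.23e-05, same test) and *Lifr* fell by 0.63 (adjusted p = 2.27e-05, same test). The 9 MN markers that set this scale did not move together, with TMM log2 fold changes from -0.19 (*Isl1*) to 1.33 (*Prph*). Values on this scale therefore depend on which MN markers are used, and other choices were not tested. Nor did the 8 pan-neuronal markers move together. With TMM 4 were called higher, 1 lower (*Snap25*) and 3 not called, with log2 fold changes from -0.29 to 1.01. With these 8 markers as the scale, the median of all genes was -0.38, and 1462 genes (10.2%) were called higher and 7778 (54.5%) lower. Then *Ntrk2* (1.11), *Ntrk3* (1.47), *Cntfr* (0.48) and *Met* (0.42) were called higher, *Ngfr* (-0.27) and *Lifr* (-0.26) lower, and *Ret* (0.18), *Gfra1* (0.12) and *Gfra2* (0.23) were not called. A scaling shifts all genes alike, so the distance of a receptor from the median of all genes is set by construction to about the same value under the 3 scalings, such as 1.84 for *Ntrk3* and 0.56 for *Ret*. The markers of the other lists moved with the genotype too, and their part in the levels of the receptors was not tested.

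Ratios between receptors within a library do not depend on how the libraries are scaled. The ratio of *Ngfr* to *Ntrk2* plus *Ntrk3*, in CPM per kb, was 104 and 86.9 in WT and 36.1 and 32.7 in *Patz1* KO. The KO ratios were thus 2.77-fold lower, and the groups did not overlap. The size of this ratio depends on the lengths used. The exons of *Ntrk2* and *Ntrk3* add up to 19.29 and 30.17 kb, while their longest coding transcripts have 8.744 and 19.7 kb. The ratio of *Cntfr* to *Lifr* was 1.73 and 1.45 in WT against 2.39 and 2.97 in the KO, or 1.68-fold higher, again without overlap. For the other 3 ratios the groups overlapped. *Gfra1* to *Gfra2* was 6.65 and 6.39 in WT against 6.71 and 5.35 in the KO. *Ret* to its co-receptors *Gfra1* plus *Gfra2* was 2.94 and 2.33 in WT against 2.64 and 2.76 in the KO, and *Ntrk2* to *Ntrk3* was 3.24 and 5.65 in WT against 3.26 and 3.44 in the KO. With 2 libraries against 2, a 2-sided exact permutation test cannot go below p = 0.333, which is the value for both ratios that did not overlap (0.832 after Benjamini-Hochberg adjustment over 5 ratios). So these differences are given as values that separated the libraries and not as calls.

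**Figure D4:**
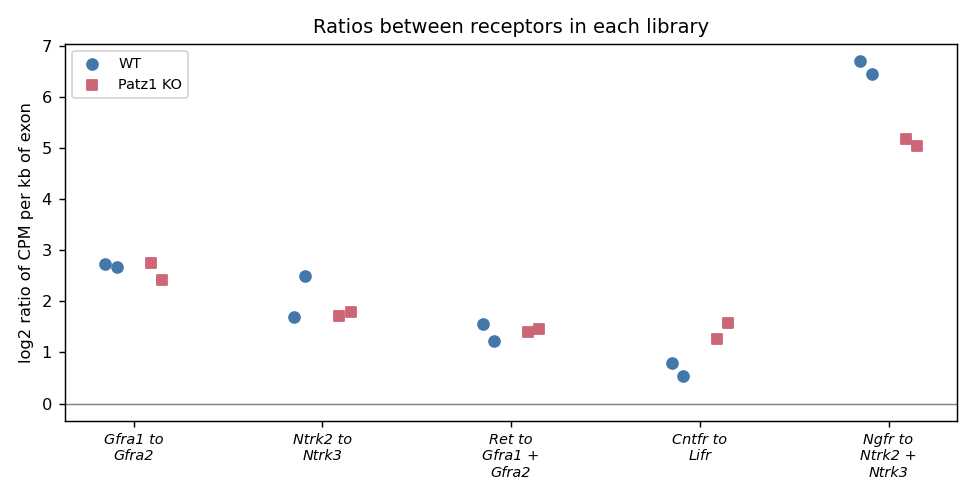
Log2 ratio of receptor levels in CPM per kb of exon (vertical axis) in each WT library (circles) and *Patz1* KO library (squares). The groups are apart for *Cntfr* to *Lifr* and for *Ngfr* to *Ntrk2* plus *Ntrk3*, and they overlap for the other 3 ratios.

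The ligands of these receptors were then examined in the same cultures, together with other genes of the pathways, from lists of 105 genes in all. Of the 93 genes tested, 30 were higher and 18 lower in *Patz1* KO MNs, so that 51.6% were called against 47.9% of all genes tested. Their median log2 fold change was 0.083. These values use TMM. On the MN marker scale each would be lower by about the 0.74 by which the median of all genes moved, so that smaller rises, such as those of *Map2k1*, *Lrig1* and *Casp9* among the genes that follow, would lie under 0. The number called lower was 8 without WT replicate 2 and 11 without WT replicate 1.

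**Figure D5:**
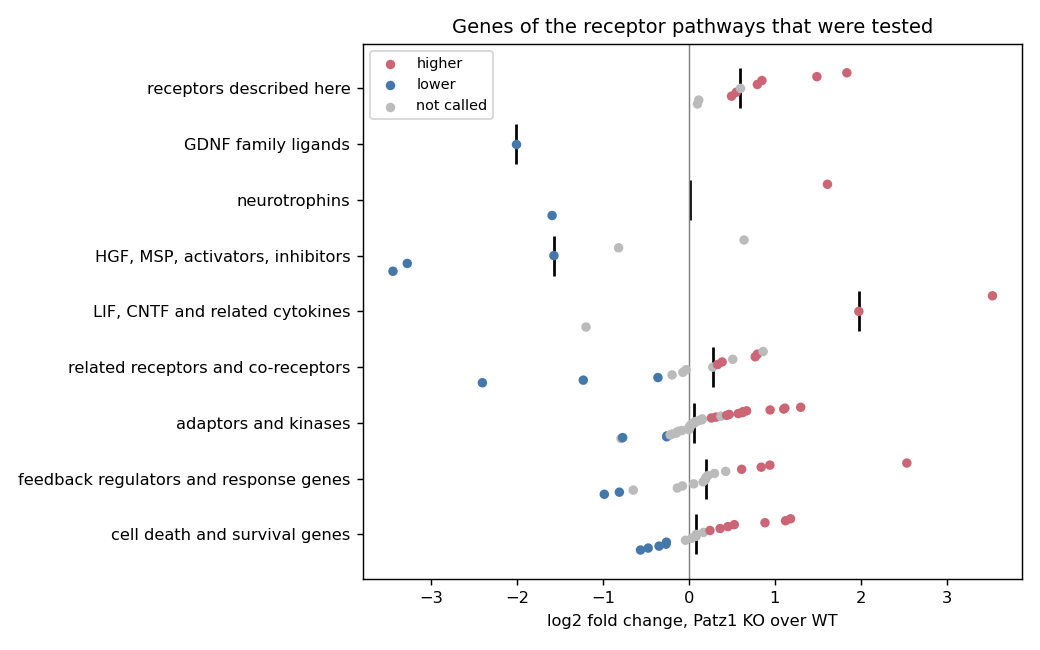
Log2 fold change (horizontal axis, *Patz1* KO over WT) of the receptors and of every tested gene in 8 lists of pathway genes, with red for genes called higher, blue for genes called lower, grey for genes not called and black bars at the medians. *Ntf3*, *Clcf1* and *Vgf* lie far to the right, and *Spint1* and *St14* far to the left.

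Among the ligands, *Ntf3*, which encodes NT-3, had the highest level and rose. The WT libraries had 322 and 305 counts of it and the KO libraries 1514 and 1044, which is 20.4 ± 1.72 against 62.3 ± 0.147 CPM (SD, n = 2 each). *Ntf3* thus had a log2 fold change of 1.61 (SE 0.10, adjusted p = 1.23e-09, edgeR's quasi-likelihood test), so the gene of NT-3 and the gene of its main receptor, *Ntrk3*, were both higher in the same libraries. *Bdnf*, whose exons overlap the antisense gene *Gm45346*, went the other way, from 55 and 58 counts to 32 and 18 in the KO libraries (log2 fold change -1.59, SE 0.30, adjusted p = 0.000266, same test). *Ntf5*, the gene of NT-4, had at most 6 counts in any library and was too low to be tested. *Gdnf*, with few counts, went from 10 and 21 in WT to 6 and 4 in the KO libraries. Its log2 fold change of -2.01 (SE 0.56) passed the threshold (adjusted p = 0.00670, same test), but it was -1.43 with an adjusted p of 0.263 in that test without WT replicate 2, and DESeq2's Wald test did not call it (adjusted p = 0.0853). The other ligands of RET were below the filter, with 6 counts or fewer of *Nrtn*, the gene of neurturin, 5 or fewer of *Artn*, the gene of artemin, in any library, and of *Pspn*, the gene of persephin, 9 or fewer. *Hgf* counts were 0 and 6 in the WT and 8 and 1 in the KO libraries, and at such a depth no difference could be detected.

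Of 7 genes of cytokines that act through LIFR and of their partners, 3 were tested, 2 were higher and 0 lower. *Clcf1*, which encodes a ligand of the CNTF receptor and whose exons overlap the annotated gene *AC109138.7* on the same strand, rose from 4 and 0 counts to 40 and 25 in the KO libraries (log2 fold change 3.53, SE 0.65, adjusted p = 0.000248, edgeR's quasi-likelihood test). With so few counts in WT the size of this change is uncertain, and it was 7.91 without WT replicate 1 and 2.53 without WT replicate 2. *Lif* (12 and 18 counts in WT, 6 and 11 in *Patz1* KO) was not called (adjusted p = 0.0695, same test). *Cntf* counts were 7 and 8 in the WT and 7 and 4 in the KO libraries, and those of *Ctf1* were 5 and 13 against 5 and 3. Neither passed the filter, and the exons of *Cntf* overlap those of *Zfp91*. *Osm* and *Ctf2* had no count in any library. A count of 0 in a library allows up to 3 counts.

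Of 6 genes around HGF, including its activators and inhibitors, 5 passed the filter, and 3 fell and 0 rose in *Patz1* KO. *St14*, the gene of the protease matriptase, which can activate HGF, fell from 62 and 65 counts to 6 and 11 in the KO libraries (log2 fold change -3.28, adjusted p = 2.19e-06, edgeR's quasi-likelihood test). *Spint1* and *Spint2*, which encode inhibitors of such proteases, fell by 3.44 and by 1.57 on the log2 scale. These 3 genes are also typical of epithelia, and the endoderm and mesenchyme sums given above fell in the same libraries. Their part in these falls was not tested.

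Among 15 related receptors and co-receptors, 13 were tested, 4 were higher and 3 lower. *Sdc3*, a heparan sulfate proteoglycan that binds GDNF, rose by 0.80 and *Nradd*, a gene related to *Ngfr*, by 0.77 on the log2 scale. *Gfra3*, the artemin co-receptor, fell from 6.35 ± 0.798 to 2.66 ± 0.556 CPM (SD, n = 2 each; log2 fold change -1.23, adjusted p = 0.000374, edgeR's quasi-likelihood test). *Osmr*, a chain of the oncostatin M receptor, had 12 and 13 counts in the WT and 1 and 5 in the KO libraries. It was called lower (adjusted p = 0.00742, same test), but not without WT replicate 1 (0.0527), WT replicate 2 (0.0542) or *Patz1* KO replicate 1 (0.137), nor by DESeq2's Wald test (0.0954). The exons of *Sdc3* overlap 2 antisense genes.

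Of 36 adaptors and kinases downstream, all tested, 12 were higher and 3 lower, and their median log2 fold change was 0.064. The gene *Ngfrap1* (now *Bex3*), whose product binds p75, had the smallest p and had 249.7 ± 1.89 CPM in WT and 537 ± 16.3 CPM in the KO (SD, n = 2 each), so that it rose by 1.10 on the log2 scale (adjusted p = 5.27e-08, edgeR's quasi-likelihood test). *Stat3*, the transcription factor activated by LIFR and gp130, rose by 0.95, *Frs3*, an adaptor of TRK kinases, by 1.30 and *Map2k1*, a kinase of the ERK cascade, by 0.63 on the log2 scale. The exons of *Stat3* overlap *Stat5a* and those of *Frs3* overlap *Frs3os* and *Tomm6os*.

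Among 16 feedback regulators and response genes, 4 were higher, 2 lower and 10 not called, and their median log2 fold change was 0.19. *Vgf*, a neurotrophin-inducible gene that encodes a secreted neuropeptide precursor, had 66 and 70 counts in the WT and 654 and 406 in the KO libraries. Its mean level was 4.41 ± 0.0201 CPM in WT and 25.6 ± 1.96 CPM in the KO (SD, n = 2 each), and it rose by 2.54 on the log2 scale (SE 0.15, adjusted p = 5.30e-10, edgeR's quasi-likelihood test). *Spry2* (0.84) and *Lrig1* (0.61), both inhibitors of receptor tyrosine kinases, rose, while *Spry1*, a relative of *Spry2* that restrains RET, fell by 0.81 on the log2 scale. The exons of *Lrig1* overlap *Slc25a26* on the other strand and those of *Spry1* overlap *Gm42922*.

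Genes of cell death and survival went both ways, with 7 higher and 5 lower of 17 tested and a median log2 fold change of 0.085. The death-promoting genes *Bid* (1.12, with 11.03 ± 0.317 CPM in WT and 24.1 ± 1.07 CPM in the KO, SD, n = 2 each) and *Bbc3* (0.89), which encodes PUMA, rose on the log2 scale, as did *Casp9* (0.53), the initiator caspase of the mitochondrial pathway. *Bcl2*, which protects cells from death, fell by 0.56 on the log2 scale (adjusted p = 0.00159, edgeR's quasi-likelihood test). All 4 of these genes except *Bbc3* have exons that overlap another gene (*Bcl2l13* for *Bid*, *Cela2a* and *Ctrc* for *Casp9*, *D630008O14Rik* for *Bcl2*), so their values are less certain where reads were counted without regard to strand.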

How the data were processed

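RNA-seq libraries from 2 WT and 2 *Patz1* KO cultures of cervical MNs were stranded and had been depleted of ribosomal RNA. The authors mapped reads to mm10 with Bowtie 2 and deposited raw counts per gene symbol. The submitters' processing notes also name TopHat2 2.1.1 and featureCounts 1.6.2. The annotation and strand setting are not given in the sources used here, so genes with overlapping exons are uncertain.

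From the counts, libraries were normalized with TMM, filtered with filterByExpr (minimum count 10) and tested with edgeR 4.0.16 in R 4.3.3, with Benjamini-Hochberg adjustment. Standard errors were derived from the log2 fold change and the F statistic, as its absolute value over the root of F. The paper's test, DESeq2's Wald test (1.42.0), was an alternative, as were other scalings and filters, the replicate number as a block and leaving out each library. Scaling to marker genes was added after the data were seen. Positions and exon lengths came from GENCODE M21 on GRCm38, which matched 23082 of 23420 symbols. The 9 receptors, the gene lists and the rule for named genes (the 9 receptors, *Patz1*, the ligands, *Il6st*, and in each list up to 4 called genes by smallest p) were chosen with earlier results of these data known. Some of the named genes are not reported here. Tests were checked on simulated counts. The intervals of fold changes include the fitted spread between replicates. The limit of 3 counts covers counting error only, since reads carry no molecular identifiers.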

Additional observations from a re-analysis of the deposited data

How the results depend on the processing

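The 6 receptors called higher were 6 to 8 under the alternatives set beforehand, and 0 were called lower in any of them. *Gfra2* was also called without the filter on low counts (log2 fold change 0.62). Without each library in turn *Ngfr* went from -0.042 to 0.24, *Lifr* from -0.085 to 0.29 and *Il6st* from -0.18 to 0.036. The single library that remained in a group was assumed to vary like the others. Scaling to MN markers left 2 receptors higher and 2 lower, where 3.88% and 75.1% of all genes were called. It gave -0.19 for *Ret*, -0.25 for *Gfra1*, -0.14 for *Gfra2*, -0.64 for *Ngfr*, -0.63 for *Lifr*, 0.060 for *Met* and 0.11 for *Cntfr*. Scaling to pan-neuronal markers left 4 higher and 2 lower, where 10.2% and 54.5% of all genes were called, and gave 0.18 for *Ret*, 0.12 for *Gfra1*, -0.27 for *Ngfr* and -0.26 for *Lifr*. The pathway genes called lower were 18, and 9 with DESeq2's Wald test and 8 to 18 without each library. All genes called were 6837, and 4521 to 7816 without each library. The cause of these differences was not tested, apart from the scale itself. Without each library in turn the log2 difference between genotypes changed sign for the 3 ratios whose groups overlapped (-0.75 to 0.050 for *Ntrk2* to *Ntrk3*, -0.29 to 0.042 for *Gfra1* to *Gfra2*, -0.12 to 0.21 for *Ret* to its co-receptors), and it was 0.59 to 0.90 for *Cntfr* to *Lifr* and -1.60 to -1.34 for *Ngfr* to *Ntrk2* plus *Ntrk3*. Same-numbered replicates share only a number: their deviations from the group means correlated by 0.0304 over genes, and with the replicate block 7363 genes and again 6 receptors were called. Depth limits *Gfra2* and the ligands with few counts.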
